A study of Mus musculus with 8 samples.

Results

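The granins and the enzymes that process prohormones are the proteins with which endocrine cells fill their dense-core granules. Transcripts of 10 such genes were followed by their Ensembl identifiers among the 48440 genes of the deposited table, namely the granins Chga, Chgb, Scg2, Scg3 and Vgf, the convertases Pcsk1 and Pcsk2, the convertase partners Scg5 and Pcsk1n, and the carboxypeptidase Cpe. All 10 were in the table, and 9 of them, all but Pcsk2, were among the 10053 genes tested. RNA came from jejunal epithelial cells of 8 female mice on a C57BL/6J background that carry Sox9-EGFP, a transgene in which green fluorescence reports the transcription factor Sox9, and only cells with a low reporter level were collected. The 4 conventionalized animals had been raised germ-free, were picked at random from each littermate pair and moved at 8 to 10 weeks of age to another animal facility, received by gavage fecal slurry from the conventionally raised colony of the same reporter line, and were studied 2 weeks later. The 4 germ-free animals were their littermates, were not given the slurry and were harvested with them, so that each of the pairs A, B, C and D holds 1 animal of each condition. The change of facility came with the conventionalization, and the effects of these cannot be told apart. In the sort, cells marked by CD45, CD31, Annexin-V or Sytox-blue were discarded, a step meant to remove dying cells, endothelium and leukocytes. Each group is thus a mixture of the cells within the low reporter gate, and the design asks how the microbiota acts on epithelial stem cells.

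Endocrine cells scattered through the gut epithelium make peptide hormones as larger precursors. Granins condense in the trans-Golgi network, help to pack the precursors into granules and are themselves cut into peptides. In the granule the convertases Pcsk1 and Pcsk2 cut after pairs of basic residues, Cpe removes the basic residues left at the new ends, and the peptides are stored until a nutrient, microbial or nervous signal releases them. Chga and Chgb are classic markers of enteroendocrine cells, above all of the enterochromaffin cells that make serotonin.

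Depth, taken as the deposited total over the value of 1 read, was 9363889 to 19139685 approximate reads in conventionalized and 6209041 to 11648530 in germ-free animals. Values are given in CPM, library-scaled counts with trimmed mean of M-values (TMM) factors, which compare a gene between libraries but not genes of different length. Among 9 markers of crypt base stem cells, summed levels were 4671 to 9671 CPM in conventionalized and 864 to 5084 CPM in germ-free animals, with Sox9 at 378 ± 109 CPM in conventionalized mice and 246 ± 82.7 CPM in germ-free mice (SD, n = 4 each). The difference in Sox9 did not pass (log2 fold change, conventionalized over germ-free, 0.64, SE 0.36, adjusted p = 0.241 by limma). Germ-free animal C had a median correlation of 0.792 with its group, against 0.918 to 0.943 for conventionalized and 0.871 to 0.887 for the other germ-free animals. Conventionalized animal A carried 3.88% of its library in 8 goblet cell markers, against 0.166 to 0.938% in the others. Results are given below also without these 2 libraries.

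All 9 tested granin and processing genes fell in conventionalized animals, to between 19.9% (Scg2) and 29.0% (Pcsk1n) of the germ-free level, and the untested Pcsk2 was low in both groups. Their log2 fold changes, conventionalized over germ-free, ran from -2.33 to -1.79 with a median of -2.07, against a median of 0.32 over all 10053 tested genes. By limma with Benjamini-Hochberg adjustment over all tested genes and a call under 0.05, 9 of 9 members were called lower and 0 higher, while 3.76% of all tested genes were called lower. In each of these 9 genes the highest conventionalized animal lay below the lowest germ-free animal, a separation that 5.88% of all tested genes showed. Vgf met the expression minimum of 10 CPM in at least 4 libraries through its 4 germ-free and only 2 conventionalized animals, so that its place in the test rests on its germ-free level, and the other 8 met it in all 8 libraries. Without the 2 libraries that stood apart all 9 were called lower, with log2 fold changes of -2.16 to -1.55. In that fit limma took the spread of most genes from all genes pooled, so its calls do not rest on the remaining animals alone. Leaving out only conventionalized animal A, only conventionalized animal B or only germ-free animal A left 5 of the 9 called lower. Without any other single library 6 to 9 were called lower. In bulk RNA of a sorted fraction, fewer cells of one type and less RNA per cell cannot be told apart. The 10 genes were grouped with earlier results of these same libraries known, so their common direction is a description of the group.

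**Figure D1:**
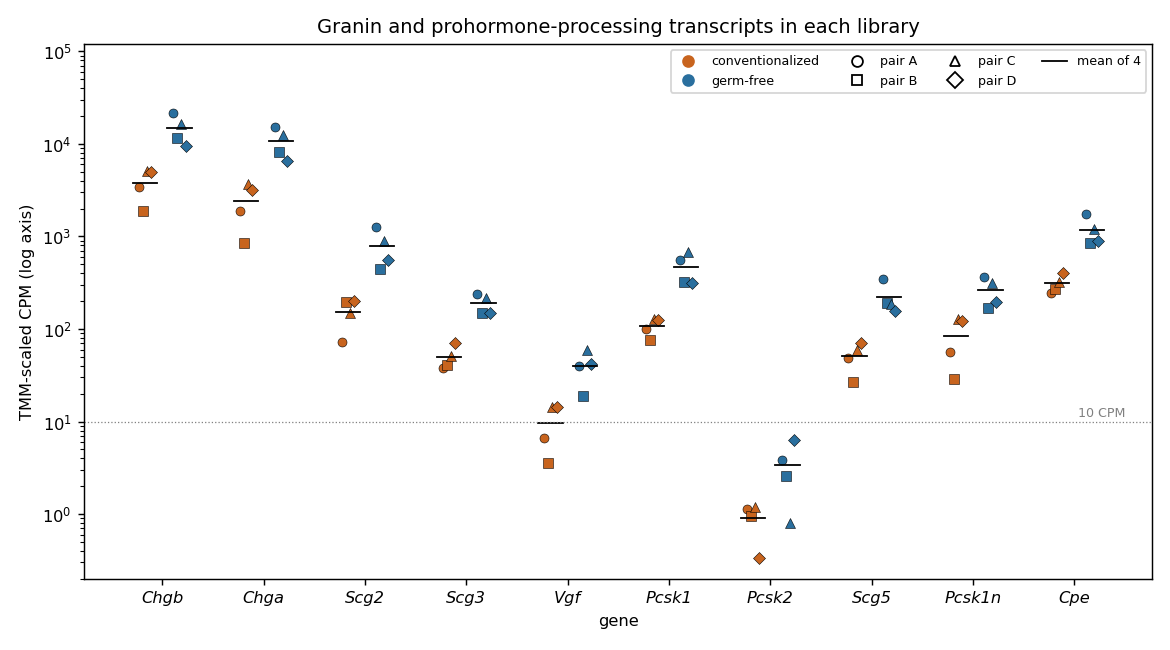
TMM-scaled CPM of each granin and processing gene in each of the 8 libraries on a log axis, conventionalized animals in orange left of germ-free animals in blue, with a marker shape per littermate pair and a black line at the mean of 4 animals. For every gene except Pcsk2 the orange points lie below all blue points, and the dotted line marks the expression minimum of 10 CPM.

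Chgb and Chga, the major matrix proteins of the granule, were the most abundant members in every library. Chgb (ENSMUSG00000027350.8, chromosome 2, 132781278 to 132795079, plus strand, GRCm38) stood at 3445, 1871, 5047 and 4933 CPM in conventionalized animals A, B, C and D, against 21664, 11550.1, 16536 and 9497 CPM in their germ-free littermates. Even the lowest germ-free animal, D, had more Chgb RNA than any conventionalized one, and conventionalized animal B was the lowest of all. The change was 3.96-fold lower in conventionalized animals (log2 fold change -1.98, SE 0.49, adjusted p = 0.0323). Chga (ENSMUSG00000021194.5, chromosome 12, 102554969 to 102565028, plus strand) had 1897, 855, 3691 and 3199.7 CPM in the conventionalized animals in the same order of pairs, against 15402, 8083, 12501 and 6538 CPM in the germ-free ones. Animal B was again the lowest of its group, and the conventionalized animals spanned a wider range, 4.31-fold, than the germ-free ones, 2.36-fold. Chga was 4.80-fold lower (log2 fold change -2.26, SE 0.53, adjusted p = 0.0267). These 2 abundant genes had wider errors than most members: without conventionalized animal A or B or germ-free animal A in turn, the adjusted p of Chga was 0.0699, 0.0872 and 0.0791. For Chgb it was 0.0827, 0.106, 0.0655 and 0.0576 without conventionalized animals A, B, C and D, and 0.102 and 0.0543 without germ-free animals A and D.

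Scg2, the precursor of secretoneurin, had the most negative fold change of the members with all 8 libraries, while Chga came first without conventionalized animal A or C or germ-free animal D and Scg5 without the 2 libraries that stood apart (-2.16, against -1.91 for Scg2). Scg2 (ENSMUSG00000050711.7, chromosome 1, 79434669 to 79440120, minus strand) was measured at 73.2, 196, 147 and 199 CPM in conventionalized animals A to D and at 1254, 443, 887 and 555 CPM in germ-free animals A to D. Its order among conventionalized animals differed from that of Chga: animal A was lowest, and animal B, lowest for Chga and Chgb, was next to the highest. Scg2 was 5.03-fold lower in conventionalized animals (log2 fold change -2.33, SE 0.42, adjusted p = 0.00807). Scg3, which links Chga aggregates to the granule membrane, showed the smallest spread between germ-free animals of all members (ENSMUSG00000032181.6, chromosome 9, 75643189 to 75684056, minus strand). It had 37.5, 40.9, 51.2 and 70.4 CPM in conventionalized against 241, 149, 217 and 148 CPM in germ-free animals. The change of Scg3 was 3.77-fold (log2 fold change -1.92, SE 0.30, adjusted p = 0.00577), with the lowest p of the members. Vgf, a granin-like precursor of several peptides first found as a gene induced by nerve growth factor, was the rarest tested member (ENSMUSG00000037428.14, chromosome 5, 137026392 to 137033351, plus strand). Conventionalized animals had 6.62, 3.52, 14.2 and 14.3 CPM of Vgf and germ-free animals 40.1, 19.0, 59.8 and 42.1 CPM, with the closest approach between conventionalized animal D and germ-free animal B. Vgf was 4.26-fold lower (log2 fold change -2.09, SE 0.46, adjusted p = 0.0199), and its adjusted p was 0.0529 and 0.0629 without conventionalized animals A and B and 0.0621 and 0.0507 without germ-free animals A and D. Scg2 and Scg3 were called without each of the 8 libraries in turn.

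Of the convertases, Pcsk1 carried nearly all the signal. Pcsk1 (ENSMUSG00000021587.4, chromosome 13, 75089826 to 75134861, plus strand), the convertase of most gut prohormones, had 100.5, 76.4, 129.7 and 124 CPM in conventionalized animals A to D, against 561, 325, 681 and 316 CPM in germ-free animals. The conventionalized animals lay close together, within 1.70-fold, and all were below the lowest germ-free animal, D. Pcsk1 was 4.20-fold lower (log2 fold change -2.07, SE 0.34, adjusted p = 0.00615). Pcsk2 (ENSMUSG00000027419.9, chromosome 2, 143546156 to 143816285, plus strand), which in pancreatic islets completes the processing of glucagon and insulin precursors, reached the minimum in 0 libraries. It stood at 1.15, 0.962, 1.20 and 0.334 CPM in conventionalized and 3.83, 2.58, 0.803 and 6.28 CPM in germ-free animals, from 14, 10, 13 and 5 against 30, 29, 7 and 70 approximate reads. The groups overlapped, since germ-free animal C was lower than conventionalized animals A, B and C. In the fit with no expression filter its log2 fold change was -1.28 (SE 0.57, adjusted p = 0.367, unadjusted p = 0.0368, limma), a difference that did not pass at this depth. The annotation places the antisense genes Pcsk2os1 and Pcsk2os2 within Pcsk2, and no source used here says that strand was counted, so reads of these genes may be divided wrongly. Pcsk1 had 79.5 to 372 times the CPM of Pcsk2 in conventionalized and 50.4 to 847 times in germ-free animals, without correction for length.

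The partners of the convertases and the trimming enzyme fell as well. Scg5, a chaperone that keeps proPcsk2 from aggregating until it reaches an acidic compartment, had 49.2, 26.6, 59.1 and 71.4 CPM in conventionalized animals A to D and 344, 189, 186 and 158 CPM in germ-free animals (ENSMUSG00000023236.7, chromosome 2, 113776362 to 113829121, minus strand). All conventionalized animals were below all germ-free ones, and germ-free animal A was the highest. Scg5 was 4.27-fold lower (log2 fold change -2.10, SE 0.35, adjusted p = 0.00652), while Pcsk2, the convertase it serves, was the rarest member. Pcsk1n, the precursor of an inhibitor of Pcsk1, had 55.8, 29.0, 129.7 and 123 CPM against 367, 168, 313 and 195 CPM (ENSMUSG00000039278.10, chromosome X, 7919822 to 7924410, plus strand). Its conventionalized animals fell into a low couple, A and B, and a high couple, C and D, and D differed from its germ-free littermate by -0.65 on the log2 scale. With all 8 libraries Pcsk1n had the smallest change of the tested members, 3.45-fold (log2 fold change -1.79, SE 0.46, adjusted p = 0.0392). That call was lost when any of 6 libraries was left out, with adjusted p of 0.107, 0.119 and 0.0573 without conventionalized animals A, B and C and 0.106, 0.159 and 0.0679 without germ-free animals A, C and D. The end of Pcsk1n overlaps the gene Eras on the other strand. Cpe (ENSMUSG00000037852.8, chromosome 8, 64592542 to 64693054, minus strand) had 246, 268, 320.3 and 407 CPM in conventionalized and 1738, 858, 1216 and 899 CPM in germ-free animals, with the tightest conventionalized values of any member, within 1.65-fold. Cpe was 3.71-fold lower (log2 fold change -1.89, SE 0.36, adjusted p = 0.00982). Pcsk1, Scg5 and Cpe were called without each of the 8 libraries in turn.

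**Figure D2:**
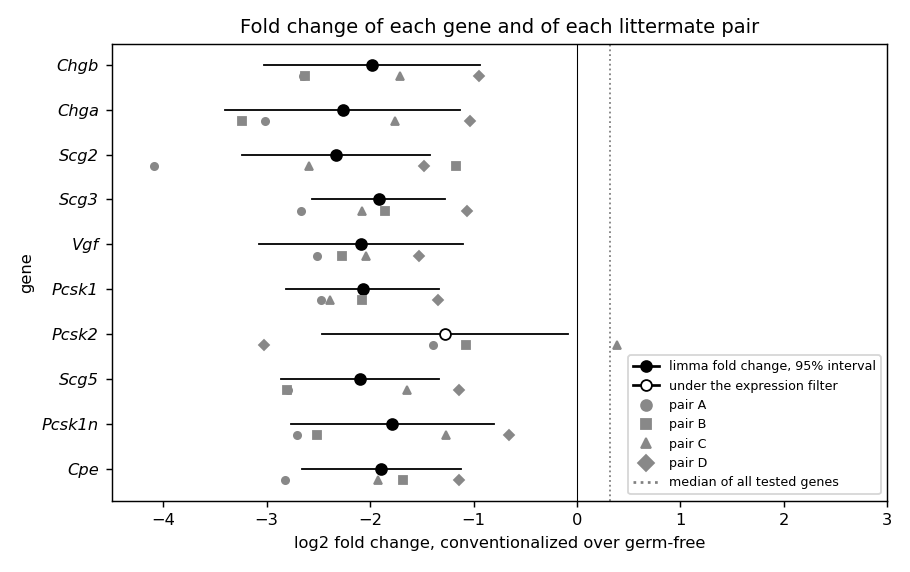
Log2 fold change of each gene, conventionalized over germ-free, from limma with its 95% interval in black, and the difference within each littermate pair in grey. The intervals of the 9 tested genes lie below 0 and below the dotted median of all tested genes (0.32), and pair D has the smallest difference in 8 of them.

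Within littermate pairs the 9 genes were lower in the conventionalized animal in all 4 pairs. Pair D had the smallest difference for 8 of them, from -1.53 to -0.65 on the log2 scale, and for Scg2 the smallest was pair B at -1.17. Pair A ran from -4.09 (Scg2) to -2.47 (Pcsk1), pair B from -3.24 (Chga) to -1.17 (Scg2), and pair C from -2.59 (Scg2) to -1.27 (Pcsk1n). Pcsk2 was lower in 3 pairs and higher in pair C, by 0.38.

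The weight of these genes in the transcriptome was high. Together the 10 took 0.353 to 1.11% of the deposited total in conventionalized and 2.10 to 4.57% in germ-free libraries, so that every germ-free library held more than any conventionalized one. Scaled by exon length, in CPM per kilobase, Chgb ranked 37 in conventionalized and 6 in germ-free animals among all genes of the table with an annotated length, and Chga 75 and 9. Cpe followed at 670 and 107. The order of length-scaled levels was stable at the top and the bottom: Chgb, Chga and Cpe held the first 3 places among the members in all 8 libraries and Vgf and Pcsk2 the last 2. Chgb was at 1396 ± 545 CPM per kilobase in conventionalized and 5406 ± 1986 in germ-free animals (SD, n = 4 each), and Chga at 875 ± 466 and 3857 ± 1474. In the middle of the order, Scg5 and Pcsk1n had 32.9 ± 12.1 and 38.5 ± 22.7 CPM per kilobase in conventionalized animals and 139.8 ± 53.9 and 119 ± 43.4 in germ-free animals. Which of these was higher changed between libraries of both groups. Pcsk1 and Scg3 were at 19.2 ± 4.37 and 18.3 ± 5.41 in conventionalized and 84.0 ± 32.2 and 69.0 ± 17.3 in germ-free animals. Pcsk1 lay above Scg3 in every germ-free animal and in conventionalized animals A and C, and below it in conventionalized animals B and D. These differences between genes were not tested.

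The make-up of the group overlapped between the conditions, and conventionalized animal B stood furthest from the others. Chgb formed 52.5 to 58.2% in conventionalized and 50.8 to 52.9% in germ-free animals of the length-scaled sum of the 10, Chga 25.2 to 38.2% in conventionalized and 35.3 to 38.2% in germ-free animals, and Cpe 3.50 to 8.32% in conventionalized and 3.93 to 5.13% in germ-free animals. Conventionalized animal B had the lowest Chga share, 25.2%, and the highest shares of Cpe, 8.32%, and of Scg2, 6.32%. Against the mean profile of the 9 tested genes, each centred on its own mean, animal B departed by -0.74 for Chga, -0.50 for Vgf and -0.49 for Pcsk1n, and by 0.97 for Scg2, 0.55 for Cpe and 0.48 for Scg3 on the log2 scale. The ratio of Chga to Scg2 in CPM was 25.9, 4.36, 25.1 and 16.0 in conventionalized animals A to D, against 12.3, 18.2, 14.1 and 11.8 in germ-free animals. That ratio overlapped between the groups, with the lowest and the highest values both in conventionalized animals. The ratio of Pcsk1 to Pcsk1n, enzyme to inhibitor, was 1.8, 2.6, 1.0 and 1.0 in conventionalized and 1.5, 1.9, 2.2 and 1.6 in germ-free animals, and overlapped as well. Among germ-free animals Vgf departed by -0.40 and -0.48 in A and B and by 0.40 and 0.56 in C and D.

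**Figure D3:**
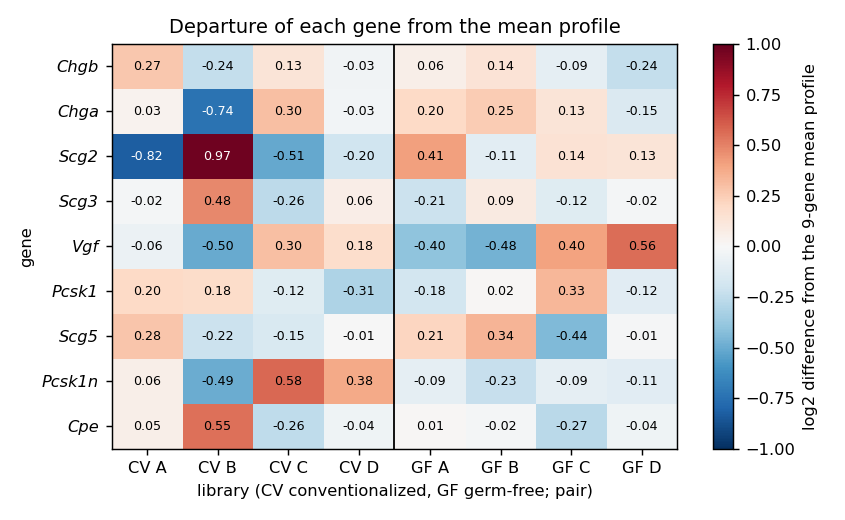
Departure of each tested gene from the mean profile of the 9 genes in each library, in log2 units, with conventionalized animals left of the line and germ-free animals right of it. Scg2 departs by -0.82 and 0.97 in conventionalized animals A and B, while no gene departs by more than 0.56 in a germ-free animal.

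The promoters of these genes were searched for a few short motifs, in windows of 250 bases before to 50 after the RefSeq start (GRCm38.p6). Windows were found for 8 of the 10 genes, all but Cpe and Vgf. The palindromic cAMP response element TGACGTCA, a site known for proteins of the CREB family, was in 3 of the 8, Chgb, Pcsk1 and Scg2, each time beginning between base -78 and base -68 from the start, and in 3.86% of 7827 tested genes with a window and 2.03% of all 27025 genes with one. The shorter core TGACG, which the full element contains on both strands, was in 7 of the 8 on either strand, against 37.2% of tested genes. The E-box CAGATG, a form bound by NeuroD-type factors, was in 0 of the 8 on either strand, against 12.9% of tested genes, and the letters TTCAGCACC, the left part of the RE1 element bound by the neuronal repressor REST, were in 1, Scg2, against 0.409%. Letters alone do not show that a factor binds, and the absence of a motif applies to these windows only. The 8 genes were not picked at random, so the shares in other genes are given for scale. A part of these motifs in the change was not tested. The core without the full element was in Chga, Pcsk2, Scg3 and Scg5, and of these only the Chga site is shown. The elements are shown 5′ to 3′ on the strand of the gene, with the full element in capitals for Chgb, Pcsk1 and Scg2. For Chga the core is in capitals, to let the surroundings of the sites be compared.
Chgb, chr2:132781559-132781588, plus strand: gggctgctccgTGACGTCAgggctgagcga
Pcsk1, chr13:75089768-75089797, plus strand: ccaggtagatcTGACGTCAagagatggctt
Scg2, chr1:79440076-79440105, minus strand: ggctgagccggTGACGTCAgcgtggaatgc
Chga, chr12:102554886-102554915, plus strand: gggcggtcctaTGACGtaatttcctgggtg
In the GENCODE M21 annotation the sites of Pcsk1 and Chga lie before the first exon, and those shown for Chgb and Scg2 overlap an annotated exon in its untranslated part. The 3 genes with the full element lay at distances of 0.149 (Chgb), 0.183 (Pcsk1) and 0.411 (Scg2) from the mean profile in log2 units.

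Among other genes of peptide processing, 6 of 10 tested modifying enzymes and 3 of 12 tested granule genes fell, and no other convertase passed the test. Over all tested genes 3.76% were called lower. Of 6 tested among 7 other subtilisin-like convertases, 0 rose and 0 fell (median log2 fold change 0.41). Furin, the convertase of the constitutive pathway, was at 42.4 ± 11.2 CPM in conventionalized mice and 32.9 ± 19.8 CPM in germ-free mice (log2 fold change 0.55, SE 0.42, adjusted p = 0.383). Pcsk5 had a log2 fold change of 0.72 (adjusted p = 0.151) and Pcsk7 one of -0.65 (adjusted p = 0.177). Of 10 tested among 13 genes for later peptide modification, 6 fell and 0 rose (median -1.29). Tpst1, which sulfates tyrosines, was at 15.2 ± 3.66 CPM in conventionalized mice and 67.5 ± 24.4 CPM in germ-free mice (log2 fold change -2.07, SE 0.32, adjusted p = 0.00577). Pam, the enzyme that amidates peptide ends, was at 10.9 ± 2.97 CPM in conventionalized mice and 36.1 ± 13.8 CPM in germ-free mice (log2 fold change -1.64, SE 0.33, adjusted p = 0.0136). Mboat4, which attaches octanoate to ghrelin, was at 8.53 ± 2.30 CPM in conventionalized mice and 29.3 ± 10.9 CPM in germ-free mice (log2 fold change -1.68, SE 0.35, adjusted p = 0.0152), and Qpct, which forms pyroglutamate at peptide starts, was at 4.31 ± 1.51 CPM in conventionalized mice and 17.8 ± 6.88 CPM in germ-free mice (log2 fold change -1.92, SE 0.42, adjusted p = 0.0196). Mboat4 and Qpct had conventionalized means under 10 CPM and passed the expression minimum with their germ-free levels. Of 12 tested among 15 genes for making and maturing dense-core granules, 3 fell and 0 rose, with a median of 0.06. The 3 were Ptprn and Ptprn2, membrane proteins of the granule, and Hid1, which serves granule formation at the Golgi. Ptprn was at 24.1 ± 11.3 CPM in conventionalized mice and 125 ± 40.3 CPM in germ-free mice (log2 fold change -2.43, SE 0.38, adjusted p = 0.00577), Ptprn2 at 14.5 ± 2.53 CPM in conventionalized mice and 49.7 ± 12.7 CPM in germ-free mice (log2 fold change -1.72, SE 0.28, adjusted p = 0.00609) and Hid1 at 60.3 ± 14.8 CPM in conventionalized mice and 138 ± 32.0 CPM in germ-free mice (log2 fold change -1.19, SE 0.29, adjusted p = 0.0309). Ica1, a granule-associated BAR domain protein, had a log2 fold change of -1.12 without passing (adjusted p = 0.0619).

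Some substrates of these enzymes and 11 factors of the lineage fell too, against 3.76% of all tested genes. Of 11 tested among 17 gut peptide precursors, 2 fell, Ghrl and Iapp, and 0 rose, with all 11 fold changes negative and a median of -1.79. Ghrl, the ghrelin precursor, was at 943 ± 327 CPM in conventionalized mice and 4572 ± 2506 CPM in germ-free mice (log2 fold change -2.22, SE 0.46, adjusted p = 0.0155). Of 18 transcription factors of enteroendocrine cells, 11 fell and 0 rose (median -1.48), led by Neurod1, Fev, Rfx6 and Lmx1a, with log2 fold changes of -2.27, -1.81, -1.73 and -2.40 (adjusted p = 0.00548, 0.00587, 0.00702 and 0.00739). Of the 11, Nkx2-2 and Prox1 were under 10 CPM in every conventionalized animal and entered the test through germ-free animals alone. These lists were drawn up with earlier results of these libraries known. Summed CPM of the 10 granin and processing genes were 0.512, 0.396, 0.709 and 0.459 times those of the precursors in conventionalized animals A to D, against 0.598, 0.568, 1.06 and 0.655 times in germ-free animals, and the groups overlapped. Relative to the summed factors the ratio was 9.65, 5.96, 15.6 and 11.7 in conventionalized and 18.9, 16.1, 15.2 and 15.2 in germ-free animals. Conventionalized animals A, B and D lay below all germ-free animals in this second ratio and animal C lay among them, so these groups overlapped as well.

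**Figure D4:**
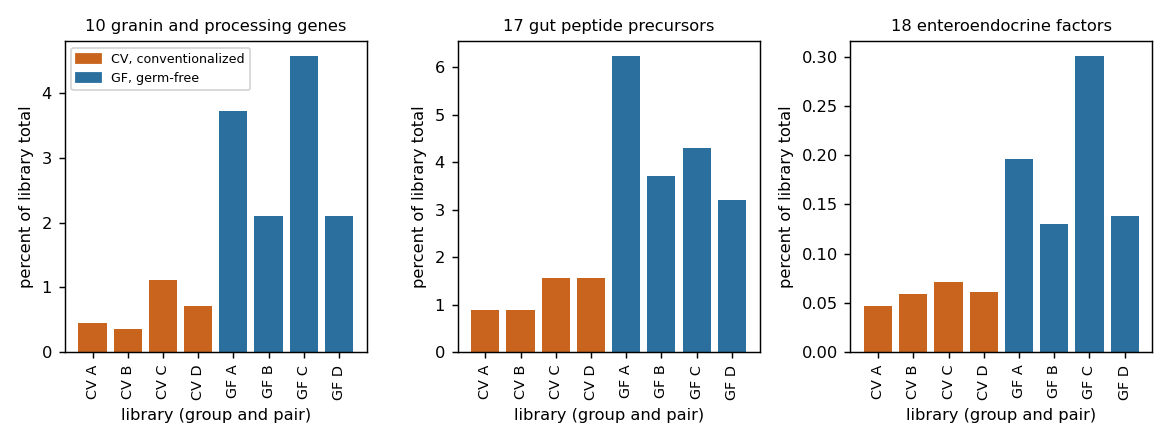
Percent of the deposited library total taken by the 10 granin and processing genes, by 17 gut peptide precursors and by 18 transcription factors of enteroendocrine cells, 1 bar per library, conventionalized (CV, orange) left of germ-free (GF, blue). Each germ-free bar is higher than every conventionalized bar in all 3 panels, and the granin group runs from 0.353 to 1.11% in conventionalized and from 2.10 to 4.57% in germ-free libraries.

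The genes with the most similar profiles over the 8 libraries were found by the mean absolute difference from the mean centred profile of the 9 tested members. The 10 nearest, at 0.110 to 0.161 log2 units, were Celf3, Aplp1, Gnaz, Cryba2, Tpst1, Ctsf, Pla2g2f, Syt13, Neurod1 and Tle2. The members themselves lay at 0.149 (Chgb) to 0.411 (Scg2), although each contributes to that mean. Celf3, an RNA-binding protein of neural and endocrine cells, was at 30.2 ± 10.9 CPM in conventionalized mice and 116 ± 35.4 CPM in germ-free mice (log2 fold change -1.95, adjusted p = 0.00652). Aplp1, a relative of the amyloid precursor protein, was at 177 ± 55.0 against 653 ± 236 CPM (log2 fold change -1.86, adjusted p = 0.0111). Syt13, a synaptotagmin, had a log2 fold change of -2.36 (adjusted p = 0.00548), and all 10 were lower in conventionalized animals with adjusted p of at most 0.0181. Of these 10, Gnaz was at 5.42 ± 2.16 CPM in conventionalized mice and 26.4 ± 10.2 CPM in germ-free mice. It thus entered the test through its germ-free level alone. Tpst1 and Neurod1 were also on the lists above. Likeness to a profile in which the groups differ favours genes with the same difference, so the 10 are a description.

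Other cells can carry granins, among them enteric neurons, and the levels of their markers are given here. Of 16 markers of enteric neurons and glia, 1 was tested, the neurofilament gene Nefm, which fell (log2 fold change -1.55, SE 0.39, adjusted p = 0.0347). Nefm was under 10 CPM in every conventionalized animal and entered the test through its germ-free level alone. The sum of the 16 was 25.2 to 42.4 CPM in conventionalized and 62.8 to 111 CPM in germ-free animals, and thus higher in every germ-free animal. Single genes ran from Hand2, at 0 in all 8 libraries, and the glial gene Sox10, between 0 and 1.03 CPM, up to Nefm, at 31.3 CPM in germ-free animal A. Chga alone was at 855 to 3691 CPM in conventionalized and 6538 to 15402 CPM in germ-free animals. Levels of different genes do not show how much of the Chga RNA such cells hold. The sum of 15 leukocyte markers was 33.8 to 75.2 CPM in conventionalized and 62.0 to 131 CPM in germ-free animals, and the 1 tested, Kit, did not pass (log2 fold change -1.16, SE 0.37, adjusted p = 0.0893). Kit was the highest of the 15 in every library, at 28.2 ± 13.7 CPM in conventionalized mice and 63.6 ± 29.8 CPM in germ-free mice. The sum of 5 endothelial markers was 23.8 to 47.3 CPM against 47.7 to 53.2 CPM. Of the 2 tested, Pecam1, which encodes the CD31 antigen gated out in the sort, fell (log2 fold change -2.03, SE 0.45, adjusted p = 0.0218) and Esam did not pass (log2 fold change 0.33, SE 0.36, adjusted p = 0.533). Pecam1, too, entered the test through its germ-free level alone, being under 10 CPM in every conventionalized animal. The part of these cells in the change of the granin group was not tested. Among epithelial types, summed tuft cell markers were 89.1 to 819 CPM in conventionalized and 364 to 869 CPM in germ-free animals, Paneth cell markers 6897 to 10676 and 2749 to 16967 CPM, and goblet cell markers 1580.5 to 50885 and 4092 to 8201 CPM, with 0 called of 22 tested in these lists. Enterocyte markers summed to 1261 to 5012 and 2208 to 5643 CPM, with 2 of 9 called lower (Sis and Krt20) and 0 higher. Of the 9 stem cell markers 1 rose, Lgr5 (log2 fold change 1.94, SE 0.50, adjusted p = 0.0397), and 0 fell, with all 9 fold changes positive. Median log2 fold changes were 1.21 for stem, -0.92 for tuft, 0.62 for Paneth, 0.14 for goblet and 0.55 for enterocyte markers. The median over all tested genes was 0.32. Of all 10053 tested genes, 378 were called lower and 117 higher.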

How the data were processed

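The authors made libraries from 10 ng RNA with SMARTer Ultra Low Input and Nextera XT chemistry and sequenced as 100 bp single-end reads, per the labels' protocols. The submitters' processing notes list the build mm10, DESeq2 1.12.4, R 3.3.1, STAR 2.4.2a and Trimmomatic 0.36, while the series text names Salmon and edgeR. Judged by its values, the deposited table holds a normalized signal, that is, estimated counts that the authors divided by at least 1 factor per library, and no source used here states the exact normalization. In genes with 1 transcript 99.8 to 99.9% of values up to 200 steps were whole multiples of a step per library within 0.02, against 25.4 to 28.5% otherwise. Raw reads could therefore not be recovered for all genes, and no count model was run. Depths are approximate reads, and PCR copies without molecular identifiers are not independent molecules. Of 48440 genes, 48058 matched GENCODE M21 (GRCm38) by identifier without version, which gave symbols, positions and exon lengths.

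CPM were computed with TMM factors by the published formula (trims of 30% and 5%). Genes that reached 10 CPM in 4 or more libraries entered the test on a log2(CPM + 0.5) scale, which shrinks fold changes of low genes, with limma 3.58.1 in R 4.3.3 (trend, robust, condition as the only term, two-sided, Benjamini-Hochberg over all tested genes, called under 0.05). The procedure was tested on simulated data. Alternatives changed the scaling, the filter (1 CPM or none), the pseudocount (0.1 or 2), library weights, the littermate block and the libraries used. The labels name the littermate pairs, so the design pairs the animals. The correlation of deviations from the group means within pairs A, B, C and D was 0.142, -0.156, 0.307 and -0.00634. Besides the 10 members, the text names up to 4 tested genes with the lowest p per list and the 10 nearest profiles. Sox10, Hand2, Sox9, Nkx2-2, Prox1, and the antisense and overlapping genes were named after their values were seen. The values of 1 listed gene are not reported here. The members and lists were chosen with earlier results of these data known. Promoter windows come from RefSeq (GRCm38.p6). The animals are separate, so p-values rest on the spread between animals, which limma draws toward a trend over all tested genes.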

Additional observations from a re-analysis of the deposited data

Results flagged for a closer look

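In 54 groups of 4 animals examined (each member's level, its share of the length-scaled sum and 7 ratios, per condition), the lowest or highest animal stood far from the other 3 in 1, where chance alone gives about 1 in 20. The count is thus not above that rate, and the groups are not independent, since shares and ratios reuse the same levels. The 1 group was the share of Scg5 among the granin and processing genes in germ-free animals. That share was 0.996% in animal C and 1.44, 1.51 and 1.50% in animals A, B and D. The gap of animal C to its nearest neighbour was 0.882 of the range of the group on the log2 scale. Germ-free animal C is also the library with the lowest correlation with its group, and its part in this gap was not tested. Scg5 was called lower in conventionalized animals without germ-free animal C as well by limma, with a log2 fold change of -2.15.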

How the results depend on the processing

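All 9 tested members were called lower under each of the 10 alternatives that changed scaling, filter, pseudocount, weights or block or left out the 2 libraries that stood apart. The direction of these 9 held in every fit, and Pcsk2 was fitted only with no filter and with a filter of 1 CPM. With library size only their median log2 fold change was -2.30 and that of all tested genes 0.09, against -2.07 and 0.32 with TMM scaling. A change of scaling moves all genes of a library by nearly the same amount. The difference between members and all genes therefore had to stay alike and is no further support. Leaving out 1 library at a time gave 5 to 9 members called and 182 to 782 genes called in all, against 495 with all 8 libraries; the calls lost were 19 over Chga, Chgb, Vgf and Pcsk1n, and these fits test fewer animals. The count of all calls was 1317 with the littermate pair as a replicate block and 1373 with library quality weights, and the cause was not tested. The paired fit changed no call of a member. Without the 2 libraries that stood apart, limma took the spread of most genes from the trend over all genes, so that its adjusted p-values rest on genes pooled rather than on 6 animals alone. That trend also weighed in the fit of all 8 libraries, and more so without germ-free animal C alone. Pcsk2 did not pass with a filter of 1 CPM either (adjusted p = 0.207). Depth limits statements on Pcsk2, and values under about 10 CPM move with the pseudocount.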
